A study of Mus musculus with 23 samples.

Results

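The interferon-stimulated genes described here are 8 mouse genes, Ifitm1, Ifitm2, Ifitm3, Ifit1, Ifit3, Isg15, Irf7 and Bst2, out of 54347 genes in the deposited table. They were chosen by name, with their levels in these libraries already known, so their own differences are given as descriptions with no test. All 8 were found in the table by Ensembl identifier. In the edgeR fit over all genes 6 of the 8 passed the filter on low counts, and Ifit1 and Ifit3 did not.

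The study sorted cells of the labial cervical loop, the epithelial stem cell niche at the growing end of the mouse lower incisor, at postnatal day 2. The mice carried a Sox2-GFP reporter in which the endogenous Sox2 promoter drives GFP, so that GFP sorts cells by Sox2 expression, and every group came from this line. The population comparison asks which genes distinguish the Sox2-positive dental epithelial stem cells from the other cells of that region. Batch A has 6 Sox2-negative and 6 Sox2-positive libraries, and batch B has 4 Sox2-negative and 7 Sox2-positive libraries. Different mice, on another day, were used for each batch. The labels name no interferon, virus or other treatment for any group. Libraries were made with Smart-seq2, which amplifies full-length cDNA from little RNA, and the labels do not say whether libraries of a group came from separate mice. The p-values therefore measure the spread between these libraries, which may be technical.

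Type I interferons signal through the receptors Ifnar1 and Ifnar2 and the kinases Jak1 and Tyk2 to a complex of STAT proteins and Irf9. This complex binds the interferon-stimulated response element, or ISRE, in the promoters of its target genes. Interferon gamma signals through Ifngr1 and Ifngr2 to STAT dimers, which bind the gamma-activated sequence, or GAS. Ifitm1, Ifitm2 and Ifitm3 encode small membrane proteins that restrict virus entry, and Ifitm genes are also known to be expressed in stem cells without interferon. Ifit1 binds viral RNA, and Ifit3 belongs to the same family. Isg15 is a ubiquitin-like modifier, and Irf7 is the transcription factor that amplifies type I interferon production. Bst2, or tetherin, holds budding virus at the cell surface.

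The promoters of the 8 genes, taken from RefSeq on GRCm38.p6 as 250 bases before to 50 bases after each start, were searched for the ISRE core, GAAA followed by any 2 bases and GAAA, on both strands. The core was present in 6 of 8 promoters (75.0%), against 1131 of 32851 promoters of the same length (3.44%). The GAS letters TTCNNNGAA were present in 2 of 8 promoters (25.0%), Ifitm3 and Bst2, against 2726 of all promoters (8.30%). Ifitm1 and Irf7 held no ISRE core in this window. In Ifitm3 both matches lay after the start, with first bases at positions 3 and 20 counted from the start. The matches before the start are printed below with 15 bases on each side, 5′ to 3′ on the gene's strand, because they are the feature shared by genes that the counts show at very different levels. Capitals mark the ISRE core, which appears as its reverse complement in Ifit1 and Ifit3.
Ifitm2, chr7:140955983-140956022, minus strand: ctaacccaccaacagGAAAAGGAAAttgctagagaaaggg
Ifit1, chr19:34640770-34640828, plus strand: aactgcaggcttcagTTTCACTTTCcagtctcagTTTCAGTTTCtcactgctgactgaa
Ifit3, chr19:34583358-34583431, plus strand: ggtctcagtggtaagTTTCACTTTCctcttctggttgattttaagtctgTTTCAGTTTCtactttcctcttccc
Isg15, chr4:156200860-156200911, minus strand: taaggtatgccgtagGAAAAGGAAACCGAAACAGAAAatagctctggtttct
Bst2, chr8:71537572-71537617, minus strand: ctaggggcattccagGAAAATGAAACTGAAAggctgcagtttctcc
Isg15 held 3 overlapping matches and Bst2 held 2, and in Bst2 the GAS letters overlapped the first of them. A match is a description of the letters and not evidence of binding. Ifitm2, with 1 match, was among the 2 most abundant members in every group, while Ifit1 and Ifit3, with 2 matches each, were near the limit of detection.

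On GRCm38 the 3 Ifitm genes and Irf7 lie on chromosome 7, Ifitm2 at 140954837-140955987, Ifitm1 at 140967221-140969825, Ifitm3 at 141009586-141010770 and Irf7 at 141262706-141266481. Ifit3 (34583531-34588731) and Ifit1 (34640871-34650009) lie on chromosome 19. Isg15 lies on chromosome 4 at 156199424-156200818 and Bst2 on chromosome 8 at 71534255-71537456. Irf7 overlaps Phrf1 on the opposite strand, and Smart-seq2 does not mark strand, so reads from the overlap cannot be told apart. Of the 31-base words of Irf7 transcripts, 15 of 4156 (0.361%) also occur in Phrf1 transcripts. Shared words also limit other members, Ifit3 and Ifitm2 the most. Of the 31-base words of Ifit3 transcripts, 61.8% also occur in Ifit3b. Of those of Ifitm2, 55.5% occur in other genes, mainly the overlapping Gm45717 and the copies Gm8865 and Gm11951. The shares for Ifitm3, Isg15, Ifitm1 and Ifit1 were 20.5%, 13.1%, 11.6% and 10.8%, and Bst2 shared none. Ifitm1 shared 3.26% of its words with the more abundant Ifitm3. The estimated counts of Ifit3 and Ifit3b could be split differently and are uncertain. For the 3 genes that share the most words with Ifitm2, no library held more than 0.87 CPM. These levels come from the same estimated counts, so they cannot show which gene the shared reads came from.

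Library totals were 2305778 to 9541443 estimated counts, with a median of 4831091. Levels below are CPM on TMM-scaled library sizes, and 3 counts, taken as the floor of detection, were worth 0.357 to 1.30 CPM. Sox2 checked the labels: it was 7.25 ± 4.41 CPM (SD, n = 6) in batch A Sox2-positive and 16.4 ± 2.89 (n = 7) in batch B Sox2-positive libraries, and at 0 in 8 of 10 Sox2-negative libraries. Epithelial markers summed to 3345 to 5404 CPM in Sox2-positive and 124 to 341 CPM in Sox2-negative libraries, and mesenchymal markers to 587 to 1269 and 9224 to 11100 CPM. The Sox2-negative libraries were mixtures that differed between batches: neutrophil markers summed to 3476 to 4208 CPM in batch A and 495 to 544 in batch B, and erythroid markers to 886 to 1094 and 49249 to 57858. The Sox2-positive libraries were also mixed and differed between batches. Schwann and neural crest markers (5 genes) summed to 755 to 966 CPM in batch A and 36.4 to 71.5 in batch B, with none at 0 throughout a group. Ameloblast markers (5 genes) summed to 289 to 350 CPM with Klk4 at 0 (batch A) and to 6.87 to 10.2 CPM with Enam at 0 (batch B). They were higher in Sox2-negative libraries, at 747 to 940 CPM (batch A) and 594 to 712 CPM with Klk4 at 0 (batch B). Libraries 1 and 2 of batch B stood together within each population, with a Pearson r over genes of 0.938 against 0.875 to 0.893 for the other Sox2-negative pairs and 0.979 against 0.937 to 0.962 for the other Sox2-positive pairs. The tests were therefore also run without these 4 libraries.

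The 8 members fell into 4 patterns across the groups. Ifitm2 was high everywhere and highest in Sox2-positive cells, Ifitm3 was highest in 1 Sox2-negative group and lowest in the other, Ifitm1 and Bst2 were higher in Sox2-negative cells of both batches, and Ifit1, Ifit3, Isg15 and Irf7 were low. The ranges of the 2 populations did not overlap for 5 of 8 members in batch A and for 5 of 8 in batch B, against 25.2% and 36.4% of the 17190 genes tested. In batch B 1 of the 5 was Ifit1, which is apart only by counts under the floor (2 counts in a library of each population), and 4 of 8 remain without it. Over all 17190 genes tested, 49.5% were called between populations in batch A and 42.6% in batch B (edgeR quasi-likelihood test, Benjamini-Hochberg adjusted p under 0.05), so a population difference is common among all genes. Between batches the ranges did not overlap for 4 of 8 members in Sox2-negative cells, or 3 of 8 (Ifitm2, Ifitm3 and Bst2) without Ifit1, against 8.91% of all genes, and 11.2% were called there by edgeR. In Sox2-positive cells they did not overlap for 0 of 8, against 8.55% of all genes, and 10.4% were called.

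**Figure D1:**
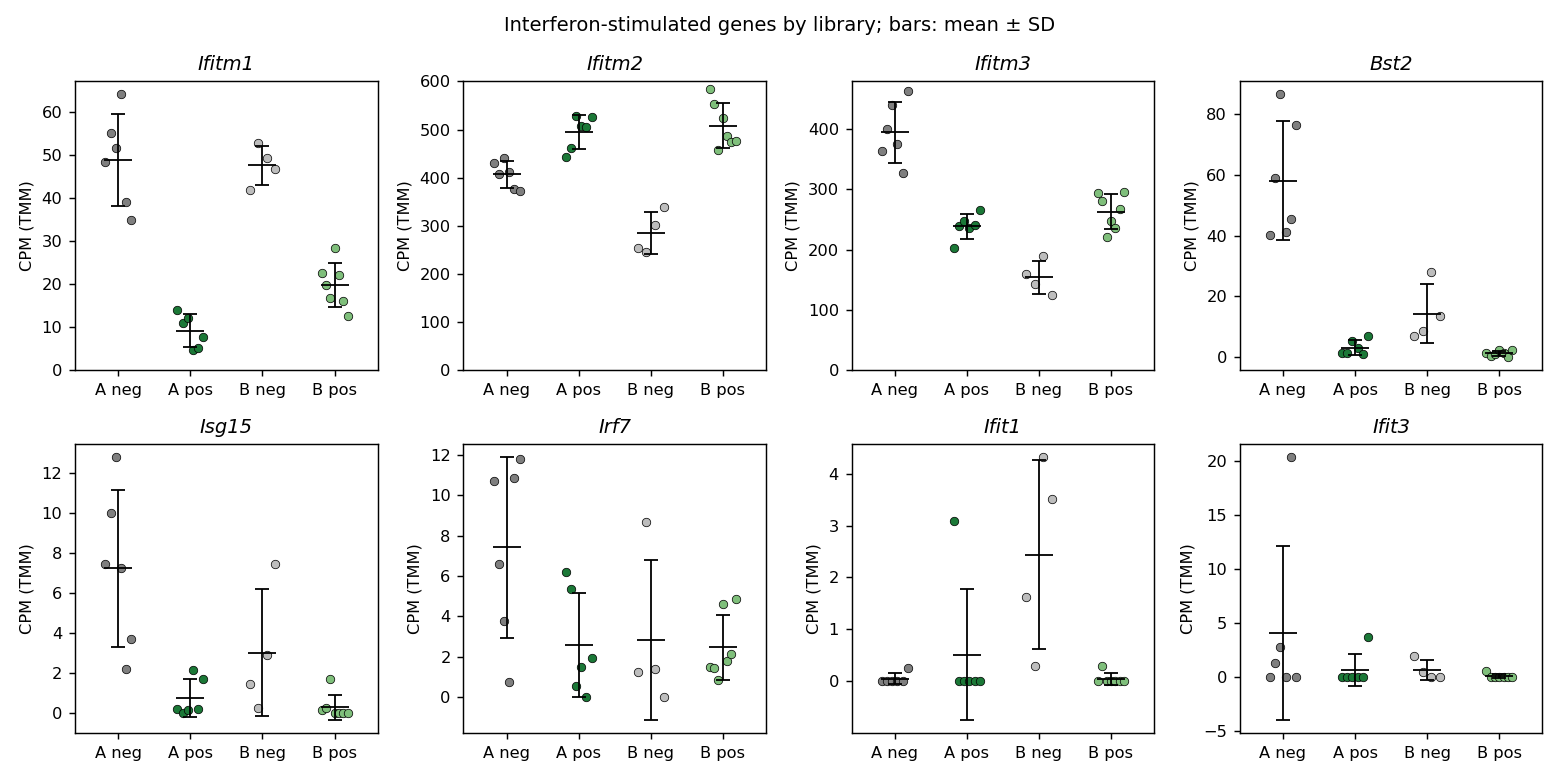
Level of each of the 8 genes in every library, in CPM on TMM-scaled library sizes (linear axes, each panel with its own scale). Points are libraries of batch A or B, Sox2-negative (neg, grey) or Sox2-positive (pos, green), and bars are mean ± SD; Ifitm2 and Ifitm3 lie between 124 and 584 CPM, Ifitm1 and Bst2 reach 64.3 and 86.6 CPM, and the other 4 genes stay at or under 20.4 CPM.

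Ifitm2 was the most abundant member. Its level in batch A Sox2-negative libraries had a lowest value of 373, a median of 409 and a highest of 442 CPM. In batch A Sox2-positive libraries the lowest, median and highest were 443, 506 and 529 CPM, so the populations met without overlapping. The 4 batch B Sox2-negative libraries held 254, 246, 301 and 340 CPM. For the Sox2-positive libraries of batch B the lowest, median and highest were 457, 487 and 584 CPM. The 2 Sox2-positive groups overlapped and had means of 495 ± 34.9 (n = 6) and 508 ± 47.1 CPM (n = 7), while the Sox2-negative means were 407 ± 28.0 (n = 6) and 285 ± 43.5 CPM (n = 4). The log2 fold change of Sox2-positive over Sox2-negative was 0.28 (SE 0.09) in batch A and 0.83 (SE 0.10) in batch B, where it was 0.64 without libraries 1 and 2.

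Ifitm3, which is known for restricting virus entry at endosomes, differed between populations in opposite directions in the batches. Its lowest, median and highest levels in batch A Sox2-negative libraries were 326, 387 and 462 CPM. In batch A Sox2-positive libraries they were 203, 240 and 265 CPM. All 6 Sox2-negative libraries were above all 6 Sox2-positive libraries, and the log2 fold change was -0.73 (SE 0.11). In batch B the 4 Sox2-negative libraries held 159, 143, 190 and 124 CPM. The batch B Sox2-positive libraries had a lowest value of 220, a median of 267 and a highest of 296 CPM. Here every Sox2-positive library was above every Sox2-negative one, and the log2 fold change was 0.77 (SE 0.12). Between batches the Sox2-positive groups overlapped, with means of 238 ± 20.3 (n = 6) and 263 ± 29.3 CPM (n = 7). The Sox2-negative groups did not, with 394 ± 50.2 (n = 6) in batch A against 154 ± 27.7 CPM (n = 4) in batch B, a log2 difference of -1.36 (SE 0.13) for batch B over batch A. The difference between the 2 population contrasts was 1.495 (SE 0.17). The opposite signs were also found with total-count scaling, which gave -0.63 in batch A and 0.92 in batch B. Neutrophil, mast cell, endothelial and leukocyte markers were also higher in batch A than in batch B Sox2-negative libraries, mast cell markers at 785 to 1004 against 11.9 to 31.5 CPM, and their part in the level of Ifitm3 was not tested.

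The ratio of Ifitm3 to Ifitm2 within a library does not depend on the scaling of that library. It was 0.973 ± 0.143 (SD, n = 6) in batch A Sox2-negative libraries and 0.481 ± 0.0238 (n = 6) in the Sox2-positive ones. In batch B the ratio was 0.551 ± 0.125 (n = 4) in Sox2-negative and 0.518 ± 0.0550 (n = 7) in Sox2-positive libraries. The batch A Sox2-negative libraries, at 0.844 to 1.24, were thus above every other library, and the other 3 groups overlapped. Ifitm3 made up 46.3% ± 3.66 of the 3 genes' summed CPM in batch A Sox2-negative libraries and 31.7% ± 5.06 to 33.2% ± 2.43 in the other groups. The summed level of the 3 genes was 850 ± 62.1 CPM in batch A Sox2-negative and 743 ± 51.1 in batch A Sox2-positive libraries. In batch B it was 487 ± 46.2 in Sox2-negative and 790 ± 68.9 CPM in Sox2-positive libraries. Batch B Sox2-negative libraries were therefore the group with the lowest summed Ifitm level.

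**Figure D2:**
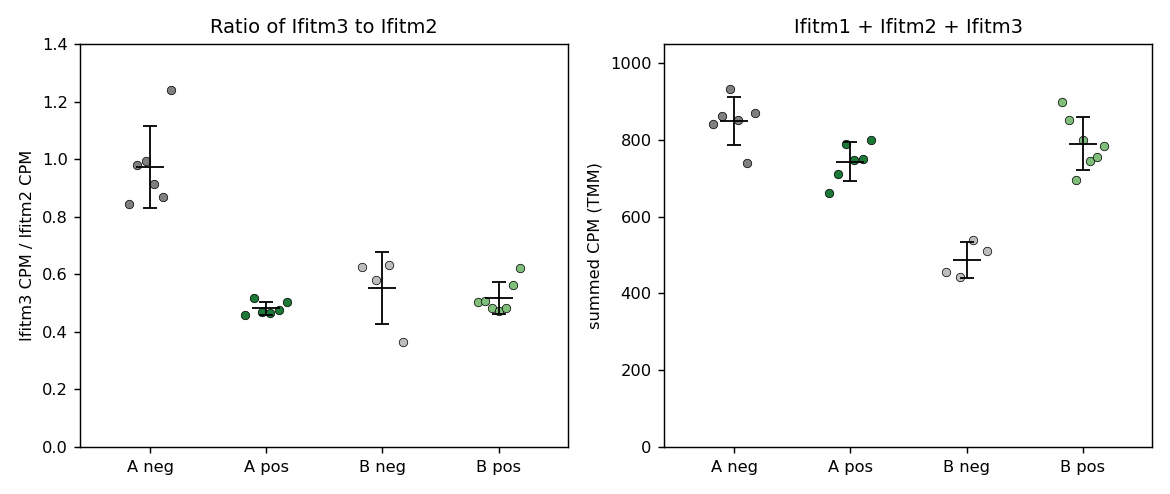
Ratio of Ifitm3 to Ifitm2 CPM (left) and summed CPM of Ifitm1, Ifitm2 and Ifitm3 (right) in each library of the 4 groups, with mean ± SD; both axes start at 0. The 6 batch A Sox2-negative libraries lie at 0.844 to 1.24 on the left, and the batch B Sox2-negative libraries are lowest on the right, with a mean of 487 CPM.

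Ifitm1 was higher in Sox2-negative cells of both batches. In batch A its lowest, median and highest levels were 34.9, 50.01 and 64.3 CPM in Sox2-negative and 4.82, 9.43 and 14.0 CPM in Sox2-positive libraries. In the Sox2-negative libraries of batch B it was 42.0, 52.8, 49.2 and 46.8 CPM. The batch B Sox2-positive libraries had a lowest value of 12.7, a median of 19.9 and a highest of 28.4 CPM. The populations did not overlap in either batch, with log2 fold changes of -2.42 (SE 0.28) in batch A and -1.27 (SE 0.28) in batch B. The Sox2-negative means were nearly equal, 48.9 ± 10.7 and 47.7 ± 4.54 CPM, whereas the Sox2-positive mean was 2.16 times as high in batch B (19.8 ± 5.16) as in batch A (9.16 ± 3.83), with overlapping ranges. Ifitm1 thus differed between batches mainly in Sox2-positive cells, with a log2 difference of 1.11 (SE 0.26) against -0.04 (SE 0.29) in Sox2-negative cells. Bst2 and Isg15 had Sox2-positive batch differences of -1.41 (SE 0.56) and -1.05 (SE 0.98), and also Sox2-negative ones of -2.03 (SE 0.59) and -1.26 (SE 1.06). The Schwann, neural crest and ameloblast markers of Sox2-positive cells also differed between batches, as given with the libraries. Their part in the level of Ifitm1 was not tested. In bulk libraries fewer cells of a type and less RNA per cell cannot be told apart, for this gene and for those that follow.

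Per kilobase of the longest coding transcript, Ifitm2 stood at 435 to 775 CPM per kb over the group means, Ifitm3 at 227 to 582 and Ifitm1 at 10.4 to 55.5. Bst2 ranged from 1.58 to 73.4 CPM per kb, Isg15 from 0.402 to 9.57 and Irf7 from 1.10 to 3.32. On this scale Bst2 was above Ifitm1 in batch A Sox2-negative cells and below it in the other 3 groups. Ifitm2 was above Ifitm3 in all 4 groups, by the smallest margin in batch A Sox2-negative cells, at 621 against 582 CPM per kb.

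Bst2 had the largest population difference among the members with a fitted value. In batch A its lowest, median and highest levels were 40.1, 52.3 and 86.6 CPM in Sox2-negative and 1.03, 2.26 and 6.90 CPM in Sox2-positive libraries. The 4 batch B Sox2-negative libraries held 6.81, 8.67, 28.1 and 13.4 CPM. Among the Sox2-positive libraries of batch B the lowest, median and highest were 0, 1.29 and 2.41 CPM. The Sox2-negative mean was 18.5 times the Sox2-positive mean in batch A (58.1 ± 19.6 against 3.15 ± 2.44) and 11.4 times in batch B (14.3 ± 9.67 against 1.25 ± 0.871). The log2 fold changes were -4.19 (SE 0.56) and -3.57 (SE 0.58). Between the Sox2-negative groups the ranges did not overlap either, and the batch A mean was 4.08 times the batch B mean.

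Several marker lists moved with Bst2 across the groups. Endothelial markers, with 6 of 6 genes at 3 or more counts in every Sox2-negative library, summed to 618 to 894 CPM (batch A) and 147 to 217 CPM (batch B) in Sox2-negative libraries, but to no more than 5.97 CPM in any Sox2-positive library. Leukocyte markers (6 of 6 genes in every Sox2-negative library) summed to 632 to 844 and 184 to 251 CPM, and to no more than 9.06 CPM in Sox2-positive libraries. Laptm5 and Cd52 in batch A and Cd52 and Tyrobp in batch B were at 0 in all Sox2-positive libraries. Macrophage markers summed to 181 to 334 CPM in batch A Sox2-negative libraries and 74.3 to 126 CPM in batch B. In Sox2-positive libraries they summed to 3.73 to 12.6 CPM (batch A) and 3.61 to 7.07 CPM (batch B). Markers of plasmacytoid dendritic cells, which in mice carry Bst2 as a surface antigen, summed to 3.87 to 36.6 and 0.433 to 5.37 CPM in the Sox2-negative groups and 0.952 to 6.34 and 0.974 to 5.04 CPM in the Sox2-positive groups. In batch B their medians were 3.46 CPM in Sox2-negative and 4.25 CPM in Sox2-positive libraries. This list thus did not move with Bst2 between the populations of batch B. The part of these cell types in the level of Bst2 was not tested.

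**Figure D3:**
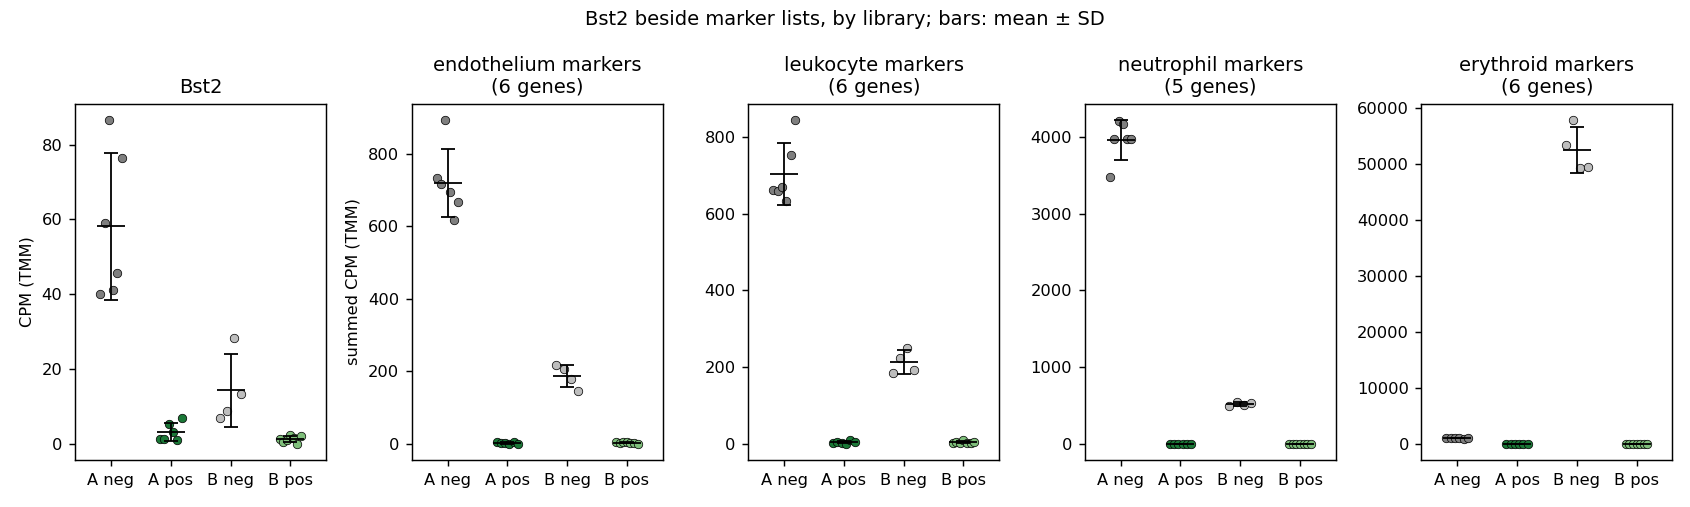
Bst2 CPM beside the summed CPM of endothelial, leukocyte, neutrophil and erythroid marker genes in each library of the 4 groups, with mean ± SD (linear axes, each panel with its own scale). Bst2, endothelial, leukocyte and neutrophil markers are highest in batch A Sox2-negative libraries, while erythroid markers are highest in batch B Sox2-negative libraries at 49249 to 57858 CPM.

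Isg15 was low but present in Sox2-negative cells. Its lowest, median and highest levels in batch A Sox2-negative libraries were 2.20, 7.35 and 12.8 CPM, and in batch A Sox2-positive libraries 0, 0.222 and 2.18 CPM. For batch B Sox2-negative libraries the values were 1.48, 0.264, 2.89 and 7.48 CPM. Among Sox2-positive libraries of batch B Isg15 was at 0 in 4 of 7, with a highest value of 1.69 CPM. The populations were separate in batch A and overlapped in batch B. The log2 fold changes were -3.24 (SE 1.01) in batch A and -3.03 (SE 1.03) in batch B, where the value was -2.03 without Sox2-negative library 4 and -4.61 without Sox2-positive library 3.

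Irf7 spread as widely within groups as between them. Its lowest, median and highest levels in batch A were 0.760, 8.65 and 11.8 CPM in Sox2-negative and 0, 1.73 and 6.20 CPM in Sox2-positive libraries. Batch B Sox2-negative libraries held 1.24, 8.69, 1.42 and 0 CPM. The batch B Sox2-positive libraries ranged from 0.834 to 4.88 CPM with a median of 1.80. All 4 groups overlapped, and the log2 fold changes were -1.51 (SE 0.88) in batch A and -0.25 (SE 0.94) in batch B. The value in batch B changed sign to 1.45 without Sox2-negative library 2 and to 1.91 without libraries 1 and 2, so no direction can be given for it. Phrf1, on the opposite strand, was at mean levels of 93.0, 30.7, 156 and 44.0 CPM in batch A Sox2-negative, batch A Sox2-positive, batch B Sox2-negative and batch B Sox2-positive cells.

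Ifit1 was nearly absent outside 1 group. Batch A Sox2-negative libraries held 1 count in all, and batch A Sox2-positive libraries held 14 counts, all in library 1 (3.08 CPM). The 4 batch B Sox2-negative libraries held 1.63, 0.294, 4.33 and 3.50 CPM, from 2 to 27 counts, while batch B Sox2-positive libraries held 2 counts, both in library 2. Batch B Sox2-negative cells were thus the only group with Ifit1 reads in every library, although 1 of these libraries was under the floor of 3 counts.

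Ifit3 reads came from few libraries of each group. Batch A Sox2-negative libraries 2, 3 and 5 held 6, 11 and 97 counts (1.24, 2.79 and 20.4 CPM), and the other 3 of the 6 libraries of that group were at 0. In batch A Sox2-positive cells all 23 counts were in library 6 (3.68 CPM). Batch B Sox2-negative libraries held 1.94, 0.432, 0 and 0 CPM, from 16 and 3 counts in libraries 1 and 2, and in batch B Sox2-positive cells 3 counts were in library 1. Ifit3 and Ifit1 did not share their group with the most reads. Ifit3b, the near copy, reached 7.26 CPM in batch A Sox2-negative libraries.

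Summed per library, Ifit1, Ifit3, Isg15 and Irf7 were at 18.8 ± 8.27 CPM in Sox2-negative and 4.48 ± 3.67 CPM in Sox2-positive libraries of batch A. The sums in batch B were 8.90 ± 1.99 and 2.88 ± 1.30 CPM. In every group these 4 genes together were far below Ifitm3 alone.

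The rest of the interferon pathway was described with a list of 126 genes in 12 roles, of which 95 passed the filter on low counts. In batch A 61 of the 95 were called lower and 2 higher in the Sox2-positive population, and the list's median log2 fold change was -1.49. Over all genes 27.6% were called lower and 21.8% higher, with a median of -0.13. In batch B 43 were lower and 6 higher with a median of -1.25, against 25.0% lower, 17.5% higher and a median of -0.11 over all genes. The count of lower genes in batch B was 24 without libraries 1 and 2. Lower calls over all genes fell there too, from 4306 of 17190 to 2599 of 18629. Of the 95 genes, 36 were called lower in both batches, 2 higher in both, 1 in opposite directions and 22 in neither. The shares of all genes with these patterns were not computed, so these counts are descriptions only. Without libraries 1 and 2 the number lower in both batches was 19, all of them among the 36, with 2 higher in both, 2 opposite and 30 in neither among 101 genes tested. Genes without a count in 1 of the groups compared have fold changes that depend on the prior count; with them set at the floor of 3 counts per library the medians were -1.49 and -1.23. The endothelial, leukocyte, neutrophil and erythroid markers given here were likewise high in Sox2-negative and near 0 in Sox2-positive libraries, and their part in these counts was not tested.

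The ligands were not detected. None of the 12 interferon genes listed passed the filter, and the 3 with the highest means, Ifnz, Ifnk and Ifna2, held 6, 4 and 4 counts over the 23 libraries together. Of the 6 receptor genes, 2 (33.3%) were called lower in batch A, and 1 lower (16.7%) and 1 higher (16.7%) in batch B. Over all genes 27.6% were called lower in batch A, and 25.0% lower and 17.5% higher in batch B. The receptor counts were near these shares. Ifngr1, the ligand-binding chain of the interferon gamma receptor, was 142 ± 23.7 CPM in Sox2-negative and 39.0 ± 8.15 in Sox2-positive cells of batch A, and 119 ± 21.2 and 26.0 ± 5.79 in batch B. It fell by 1.87 (SE 0.18, edgeR adjusted p = 3.4e-09) and 2.20 (SE 0.19, edgeR adjusted p = 3.9e-10) on the log2 scale in batches A and B. Ifnar1, of the type I receptor, was at 52.5 to 73.0 CPM over the group means, and its population differences did not pass the test. Il10rb, a chain shared by the interferon lambda and interleukin-10 receptors, was higher in Sox2-positive cells in batch B, with a log2 fold change of 1.5 (SE 0.36, edgeR adjusted p = 0.0013).

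Among 7 signal transducers 4 (57.1%) were called lower in each batch and 0 higher. Over all genes 27.6% were called lower in batch A and 25.0% in batch B. Jak1, the kinase shared by the interferon receptors, fell by 0.89 (SE 0.17) in batch A and by 1.23 (SE 0.18) in batch B on the log2 scale, with edgeR adjusted p of 0.00012 and 3.6e-06. Stat2 was among the genes called lower in both batches. Stat3 was called lower in batch B (log2 -0.55, SE 0.18, edgeR adjusted p = 0.018). The call was lost without libraries 1 and 2 (log2 -0.40, adjusted p = 0.28), with total-count scaling (adjusted p = 0.092) and without the filter (adjusted p = 0.087). It was also lost with 5 of the single libraries left out (adjusted p up to 0.076). These were batch B Sox2-negative 1, 2 and 3 and Sox2-positive 3 and 4.

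Of 6 tested interferon regulatory factors other than Irf7, 5 were called lower in batch A and 3 in batch B. Irf2 fell by 2.43 (SE 0.33) and 2.54 (SE 0.33) on the log2 scale. Irf8, a factor of myeloid cells, was called lower in batch A (27.6 ± 15.5 against 7.61 ± 4.51 CPM) and not in batch B (4.67 ± 3.87 against 3.42 ± 1.59 CPM), and the difference between these contrasts did not pass the test (edgeR adjusted p = 0.38). Myeloid markers differed between the Sox2-negative groups as given beside Bst2, and their part in the level of Irf8 was not tested.

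Of 12 tested sensors and adaptors of nucleic acid detection, 8 (66.7%) were called lower in batch A and 3 (25.0%) in batch B, and 0 higher. Over all genes 27.6% and 25.0% were called lower, so the batch B count was at the share of all genes. Tbk1, the kinase that activates Irf3 and Irf7, fell by 1.45 (SE 0.23, edgeR adjusted p = 1.1e-05) in batch A and by 1.64 (SE 0.24, edgeR adjusted p = 4.1e-06) in batch B on the log2 scale. Mavs, the mitochondrial adaptor of RNA sensing, was at 18.4 to 24.6 CPM over the group means and its population differences did not pass the test.

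Only 4 of the 8 other Ifitm and Ifit genes listed passed the filter, and 2 were called lower in each batch. Ifitm5, known from bone-forming cells, was at 20.4 ± 14.6 (batch A) and 40.0 ± 6.65 CPM (batch B) in the Sox2-negative groups, and at 0.636 ± 0.612 and 0.924 ± 1.05 CPM in Sox2-positive cells. Ifitm6 was at 39.6 ± 9.32 and 10.7 ± 4.42 CPM in the Sox2-negative groups, had no count in the 6 Sox2-positive libraries of batch A and was at most 0.277 CPM in the 7 of batch B. Against a floor of 3 counts per library, Ifitm6 was at least 66.7-fold lower in batch A Sox2-positive cells. Ifitm genes as a family thus ranged from Ifitm2, higher in Sox2-positive cells, to Ifitm6, detected at 3 or more counts only in Sox2-negative libraries.

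In the Isg15 pathway, Uba7, the activating enzyme, was called lower in both batches (log2 -1.25 and -1.08), and the batch B call was lost without libraries 1 and 2 (adjusted p = 0.14) or without single libraries (Sox2-negative 2 or 4, Sox2-positive 5 or 6; adjusted p up to 0.090). Ube2l6, the conjugating enzyme, averaged 26.1 ± 12.8 (batch A) and 132 ± 17.5 CPM (batch B) in the Sox2-negative groups, and 15.1 ± 5.14 and 16 ± 3.84 CPM in Sox2-positive cells. It fell in batch B by 3.03 (SE 0.36, edgeR adjusted p = 1.3e-07) on the log2 scale, and the batch A value of -0.78 did not pass the test (adjusted p = 0.058). The Sox2-negative groups differed by 2.34 (SE 0.37, edgeR adjusted p = 9.2e-05), batch B being higher. Erythroid markers were also higher in these batch B libraries, at 49249 to 57858 against 886 to 1094 CPM, and their part in the level of Ube2l6 was not tested. Isg15 itself averaged 7.24 ± 3.91 CPM (batch A) and 3.03 ± 3.15 CPM (batch B) in Sox2-negative cells, so the modifier and its conjugating enzyme had their higher Sox2-negative means in different batches.

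Of 14 tested antiviral effectors, 11 were called lower and 1 higher in batch A, and 8 lower and 1 higher in batch B. Samhd1, which depletes deoxynucleotides, fell by 1.49 (SE 0.32) in batch A and 2.18 (SE 0.33) in batch B on the log2 scale. Rsad2, or viperin, was at 2.29 ± 3.36 CPM in the Sox2-negative population of batch A and 27.6 ± 12.6 CPM in that of batch B, a log2 difference of 3.56 (SE 0.97, edgeR adjusted p = 0.017) that did not pass the test without libraries 1 and 2 (log2 2.89, adjusted p = 0.26) or without Sox2-negative library 2 alone (adjusted p = 0.058). Cmpk2, a mitochondrial nucleotide kinase that neighbours Rsad2, was the gene that was higher in Sox2-positive cells, at 14.5 ± 6.62 against 2.87 ± 2.39 CPM (batch A) and 31 ± 6.22 against 3.68 ± 2.46 CPM (batch B). Its log2 fold changes were 2.33 (SE 0.60, edgeR adjusted p = 0.0022) and 3.08 (SE 0.70, edgeR adjusted p = 0.00088).

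Of 8 tested guanylate-binding and immunity-related GTPases, 4 were called lower in batch A and 3 in batch B, with Irgm1 falling by 3.00 (SE 0.42) and 2.60 (SE 0.42) on the log2 scale. Of 9 tested antigen processing genes, 8 were lower in batch A and 4 in batch B. B2m, the light chain of class I molecules, was at 492.8 ± 40.3 CPM in Sox2-negative and 50.6 ± 9.61 CPM in Sox2-positive cells of batch A, and at 174 ± 35.1 and 22.3 ± 5.22 CPM in batch B. It fell by 3.28 (SE 0.16, edgeR adjusted p = 6.8e-15) and 2.96 (SE 0.16, edgeR adjusted p = 6.7e-14) on the log2 scale. Between batches B2m was lower in batch B in both populations, by 1.5 in Sox2-negative and by 1.18 in Sox2-positive cells. Psmb8, an immunoproteasome subunit, fell by 5.22 (SE 0.75) and 3.64 (SE 0.74) between populations.

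Of 19 other tested interferon-induced genes, 15 (78.9%) were lower in batch A, and 11 (57.9%) were lower and 2 (10.5%) higher in batch B. Over all genes 27.6% were lower in batch A, and 25.0% lower and 17.5% higher in batch B. Ly6e, a membrane-anchored protein that also modulates virus entry, was the gene called in opposite directions. It was 234 ± 40.8 CPM in Sox2-negative and 173 ± 26.3 in Sox2-positive cells of batch A, and 85.8 ± 19.7 and 155 ± 12.3 CPM in batch B. The log2 fold changes were -0.44 (SE 0.14, edgeR adjusted p = 0.010) and 0.86 (SE 0.15, edgeR adjusted p = 6.4e-05), and their difference was 1.29 (SE 0.21, edgeR adjusted p = 0.00015). The batch A call was lost without the filter on low counts (log2 -0.36, adjusted p = 0.083). It was also lost without Sox2-negative library 6 (adjusted p = 0.059) or Sox2-positive library 1 (adjusted p = 0.054). The test of the difference was passed in each case. Of 6 negative regulators, 1 (16.7%) was called lower in batch A, and 1 lower and 1 higher (16.7% each) in batch B. These counts did not exceed the shares of all genes given above. Socs3 was at 47.6 ± 22.8 and 76.3 ± 14.8 CPM in Sox2-negative and Sox2-positive cells of batch A, and at 25.8 ± 9.41 and 10.6 ± 3.99 CPM in batch B. Schwann and neural crest markers were at 755 to 966 CPM (batch A) and 36.4 to 71.5 CPM (batch B) in the Sox2-positive groups, and ameloblast markers at 289 to 350 and 6.87 to 10.2 CPM, and their part in the level of Socs3 was not tested.

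**Figure D4:**
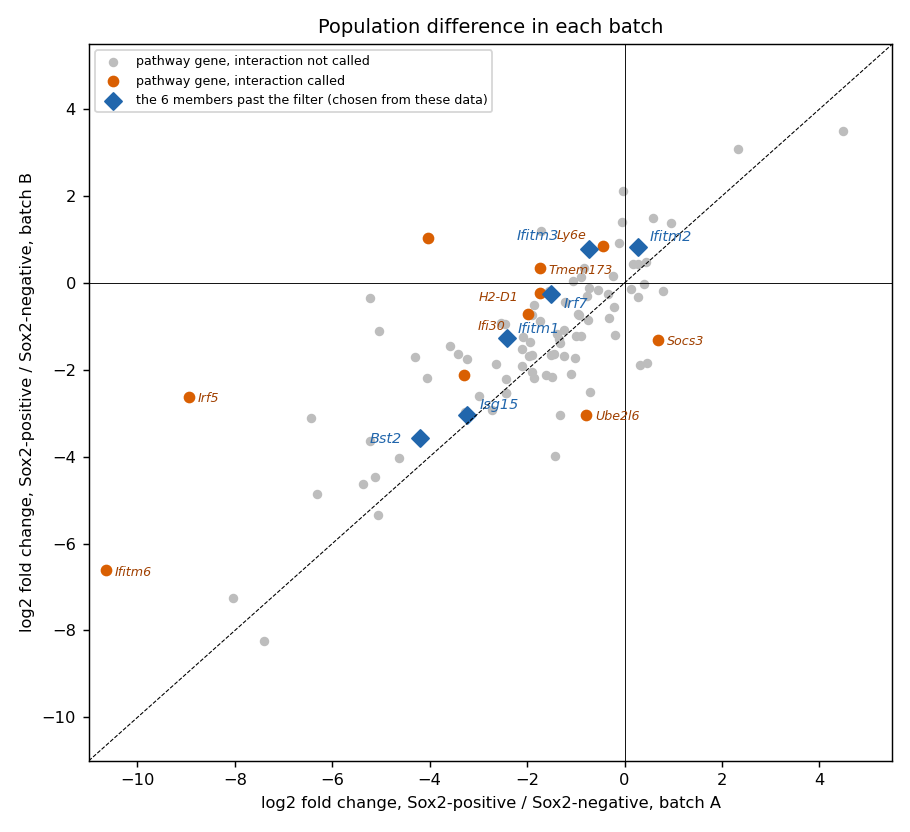
Log2 fold change of Sox2-positive over Sox2-negative cells in batch A (horizontal) and batch B (vertical) for the 95 tested pathway genes and the 6 members that passed the filter; the dashed line marks equal values. Orange points are the 10 genes whose difference between batches passed the test, with those named in the text labelled, and Ifitm3 lies beside Ly6e in the area with a negative value in batch A and a positive one in batch B.

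The population difference itself differed between batches for 10 of the 95 pathway genes, 8 with a higher and 2 with a lower value in batch B, against 2.82% and 4.22% of all genes (7.04% in either direction). The median of this difference was 0.37 over the list and 0.02 over all genes. The count of 8 was 3 without libraries 1 and 2 of batch B. The number of higher differences over all genes fell there too, from 484 of 17190 to 159 of 18629. Leaving out single libraries gave 2 to 7, with 2 when batch B Sox2-negative library 1 or 3 was left out. Ly6e, H2-D1, Socs3 and Ube2l6 passed this test under every setting run. H2-D1, a class I heavy chain, was at 336 ± 48.4 CPM in batch A Sox2-negative cells and at 101 ± 15.8, 87.5 ± 40.1 and 74.2 ± 18.3 CPM in batch A Sox2-positive, batch B Sox2-negative and batch B Sox2-positive cells. Socs3 had a difference of -1.98 (SE 0.43, edgeR adjusted p = 0.0039) and Ube2l6 of -2.25 (SE 0.49, edgeR adjusted p = 0.0043).

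Between batches, 13 of the 95 pathway genes were lower and 3 higher in batch B Sox2-negative cells, against 5.35% and 5.85% of all genes, with a median log2 difference of -0.39 against -0.00. Of the 13, 4 were antigen processing genes, a role with 9 tested. Without libraries 1 and 2 the counts were 5 lower and 1 higher. Over all genes 349 were then lower and 405 higher of 18629, against 919 and 1005 of 17190 in the full fit. In Sox2-positive cells 6 were lower and 4 higher in batch B, against 5.54% and 4.85% of all genes, with a median of -0.02. Parp14 was lower in batch B in both populations, by 3.42 (SE 0.74) and 3.62 (SE 0.67) on the log2 scale, a call that did not hold without libraries 1 and 2 in Sox2-negative cells (adjusted p = 0.092). Total-count scaling moves the median of all genes by -0.15 in the Sox2-negative and by 0.15 in the batch B population contrast, and the split over all genes from 1005 higher and 919 lower to 661 and 1388 in Sox2-negative cells, and from 833 and 952 to 666 and 1214 in Sox2-positive cells. These contrasts share libraries with the population contrasts and are not independent of them.

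The genes whose profile over the 23 libraries was most like each member were found by the root mean square difference of centred log2(CPM + 1) values. For Ifitm2 they were Ftl1, Edf1 and Hmgn2, with differences of 0.138, 0.157 and 0.164, all abundant genes. For Ifitm3 the nearest was Ly6e, at 0.200, followed by Gm3375 and mt-Nd1 at 0.275 and 0.276. Ifitm3 and Ly6e thus had the same order of groups at both ends, highest in batch A Sox2-negative and lowest in batch B Sox2-negative cells. For Ifitm1 they were Spag9, 3110039I08Rik and Phkg1, at 0.366 to 0.432. For Bst2 they were B2m, Gng11 and Ecscr, at 0.629 to 0.751, of which Ecscr is known from endothelial cells. For Isg15 the nearest was Selenop (0.612), for Irf7 Mgll (0.604), for Ifit1 Fkbp14 (0.525) and for Ifit3 Kdm4a (0.661), distances several times those of Ifitm2, whose values are the least spread. These are descriptions over libraries that share batches and sorts.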

How the data were processed

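RNA-seq libraries of sorted cells, 23 in 4 groups of batch and population, were analysed from 1 table of estimated counts for 54347 genes. Per the submitters' processing notes the authors used FastQC, Trimmomatic and Salmon with the mm10 build to make the deposited expected counts; versions and the annotation release are not given in the sources used here. Symbols were matched by unversioned Ensembl identifier to GENCODE M21 names for 54094 genes (99.5%). All 23 columns were used and 0 were left out.

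Estimated counts were rounded and fitted with edgeR 4.0.16 in R 4.3.3 (quasi-likelihood test, TMM scaling, filterByExpr with a minimum count of 10, 4 group means, all 23 libraries), leaving 17190 genes. Genes with a Benjamini-Hochberg adjusted p under 0.05 over all genes were called. Standard errors are the absolute log2 value divided by the root of the F statistic. The contrasts were Sox2-positive over Sox2-negative in each batch, the difference of these contrasts, and batch B over batch A in each population. Libraries of a group differed by more than sampling noise (lowest chi-square per degree of freedom 5.19). The scripts were tested on simulated data, with pass criteria that replaced a first criterion on recovery that was not met.

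The members, the gene lists and the marker lists were chosen with earlier results of these data known. Genes named in the text are the members, the 3 genes of each role with the highest mean CPM, the 3 highest and 3 lowest log2 fold changes among called pathway genes with a mean of at least 5 CPM, and the 3 genes most like each member among those with a mean of at least 10 CPM. Stat2, Phrf1, Ifit3b, Gm45717, Gm8865 and Gm11951 were named in addition, after their values were seen. Alternatives were RLE and total-count scaling, no filter, DESeq2 1.42.0, limma-voom (limma 3.58.1) with quality weights, each batch fitted alone, the replicate number as a block, batch B without libraries 1 and 2, and each library left out. The floor of 3 counts covers counting error only, since PCR copies were not removed by molecular identifiers. Some genes that the naming rule covers are not reported here.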

Additional observations from a re-analysis of the deposited data

Results flagged for a closer look

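Single libraries stood apart from the rest of their group in 8 of 32 sets of member and group (Dixon's test at 95%; chance alone gives about 1 in 20). Ifit1 did so in batch A Sox2-negative library 6 (0.259 CPM, 1 count), batch A Sox2-positive library 1 (3.08 CPM) and batch B Sox2-positive library 2 (0.287 CPM). Ifit3 did so in batch A Sox2-negative library 5 (20.4 CPM), batch A Sox2-positive library 6 (3.68 CPM) and batch B Sox2-positive library 1 (0.508 CPM). In 5 of these 6 sets every other library of the group was at 0, so that any count stands apart. Isg15 stood apart in batch B Sox2-positive library 3 (1.69 CPM) and Irf7 in batch B Sox2-negative library 2 (8.69 CPM).

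The population difference differed between batches, by the edgeR test of the difference itself, for 8 named pathway genes. The log2 difference, batch B minus batch A, was 1.49 for H2-D1, 1.29 for Ly6e, 1.27 for Ifi30 and 2.08 for Tmem173, which encodes the sensor adaptor STING. It was -1.98 for Socs3 and -2.25 for Ube2l6. For Ifitm6 it was 4.04 and for Irf5 6.33, but neither gene had a count in batch A Sox2-positive libraries, so these 2 values depend on the prior count. Without batch B libraries 1 and 2 the calls were lost for Ifi30 (log2 1.66, adjusted p = 0.055), Tmem173 (log2 2.26, adjusted p = 0.133) and Ifitm6 (log2 1.96, adjusted p = 1.00). Ifi30, an enzyme of antigen processing, was at 83.6 ± 32.4 CPM in batch A Sox2-negative cells and at 21.2 to 34.9 CPM over the other group means. Tmem173 was at 23.4 ± 10.4 CPM in batch A Sox2-negative cells and at 6.65 to 8.36 CPM over the others. Irf5 averaged 12.1 ± 9.43 CPM in Sox2-negative cells of batch A, 32.5 ± 24.9 CPM in those of batch B and 5.5 ± 6.93 CPM in batch B Sox2-positive cells.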

How the results depend on the processing

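No direction of a called result turned under any alternative. The members' log2 fold changes moved by less than 1 SD for 171 of 179 values under other settings. With 1 library left out this held for 680 of 690. The SD here is that of log2(CPM + 1) between libraries of a group, pooled over the 4 groups. The other values concern Ifitm2, Isg15 and Irf7 in contrasts that use batch B. The members' values under limma-voom were not compared in this way and are not among the 179. Among named pathway genes 549 of 604 calls were kept under other settings and 1774 of 1886 with 1 library left out. Counts of called pathway genes with 1 library left out ranged from 2 to 5 (higher, batch A, 2 in the full fit), 55 to 61 (lower, batch A, 61), 4 to 7 (higher, batch B, 6), 34 to 44 (lower, batch B, 43), 2 to 7 (difference higher, 8), 2 to 2 (difference lower, 2), 2 to 4 and 9 to 15 (batch, Sox2-negative, 3 and 13), and 3 to 5 and 4 to 7 (batch, Sox2-positive, 4 and 6). The count of 8 fell to 5 or fewer without any 1 of 11 libraries: batch A Sox2-negative 1 and 6, batch A Sox2-positive 1, 2, 4, 5 and 6, batch B Sox2-negative 1, 3 and 4, and batch B Sox2-positive 5. Total-count scaling and DESeq2 each gave 4 genes higher in batch A (4177 and 3935 over all genes, 3753 in the full fit). DESeq2 gave 22 lower between batches in Sox2-negative cells (1515 over all genes, 919 in the full fit). In Sox2-positive cells limma-voom gave 7 higher between batches (1687 over all genes, 833 in the full fit). Without a filter 4 differences were higher (563 of 37531 over all genes, 484 of 17190 in the full fit). Without batch B libraries 1 and 2 the counts were 24 lower in batch B and 3 differences higher. Between batches in Sox2-negative cells they were 1 higher and 5 lower. This fit had fewer libraries, and calls over all genes fell as well, as given with the results. The cause of the other shifts was not tested. Calls of the difference were lost for Ifi30, Ifitm6, Irf5 and Tmem173 under several settings, for example without libraries 1 and 2 for Ifitm6 (log2 1.96, adjusted p = 1.00) and with limma-voom for Irf5 (adjusted p = 0.35).

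Of the pairs of libraries with the same replicate number, 0 of 6 in batch A and 0 of 4 in batch B had deviations correlated above 0.1. In batch A 1 of 6, and in batch B 0 of 4, correlated best with their own number. The labels do not say whether a shared number means shared mice or a shared sort. Low correlations cannot exclude this. In batch B, libraries 1 and 2 stood together within each population. With the replicate number as a block, 28 pathway genes were lower in batch B and 2 differences were higher. Over all 17190 genes the block gave 2841 lower and 193 differences higher, against 4306 and 484 in the full fit. A block could not be fitted for the batch contrasts, since the batches used different mice on different days. The low counts of Ifit1, Ifit3, Isg15 and Irf7 limit what these libraries can show of them.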
